A study of Mus musculus with 12 samples.

Results

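The genes of MHC class II presentation were followed across naive and LPS challenged spleens of WT and ficolin KO mice. They were taken as a named set of 10 genes: the classical chains H2-Aa, H2-Ab1 and H2-Eb1, the peptide editor H2-DMa and H2-DMb1, its modulator H2-Oa and H2-Ob, the invariant chain Cd74, the transactivator Ciita and the protease Ctss. Of these, 9 were measured on a probe set of their own among the 22180 genes tested. Cd74 shared its probe set with other gene symbols and was not analysed here.

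Spleens of 12 female C57BL/6 mice, aged 10 weeks by the labels, were each measured on a Mouse Gene 2.0 ST array from Affymetrix. Mice of both genotypes, WT and ficolin KO, were either naive or LPS challenged, which gave 4 groups of 3 mice. Ficolin KO mice were double deficient for ficolin-A and ficolin-B, and WT and ficolin KO mice were bred as separate homozygous lines from crossed heterozygotes. LPS challenged mice were sacrificed 6 h after 10 mg/kg LPS given intraperitoneally, whereas naive mice were untreated, so that the LPS and the injection cannot be told apart.

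Values are deposited log2 intensities, on which a difference of 1 is a fold-change of 2. Array medians lay between 4.17 and 4.27. Fcna, the deleted ficolin-A gene, lay between 3.98 and 4.85 on arrays of ficolin KO mice and between 7.92 and 9.38 on arrays of WT mice. The B cell gene Cd79a had a mean of 11.98 and the dendritic cell gene Itgax one of 8.24 in naive WT mice, so that both were well above the array medians in the labelled tissue. Expression of 13 exocrine pancreas genes varied between arrays, with list means from 4.19 to 11.10. Precision is limited by the number of arrays, and a log2 fold-change had a median standard error (SE) of 0.14.

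MHC class II molecules display peptides from endosomes to CD4+ T cells and are carried in the spleen by B cells, dendritic cells and macrophages. The α and β chains assemble with the invariant chain, which Ctss trims to a fragment in the groove. H2-DM removes that fragment and edits the peptides, and H2-O, which is best known from B cells, restrains H2-DM. Ciita does not bind DNA itself. It is recruited by the RFX and NF-Y complexes, which sit on the X and Y boxes upstream of class II genes.

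The promoters of the members are shown because an X box followed by a Y box is the known hallmark of class II promoters. RefSeq promoters of the mouse assembly GRCm38.p6 were used for 7 of the 10 members, with 8 promoters, and none for H2-Ab1, Cd74 or Ciita. For the members, any entry on the chromosome of Cd74 was skipped, whereas the searches over all promoters kept that chromosome. The member counts below therefore could not include Cd74. The 250 bases upstream of each start were searched on both strands. The Y box core was searched as ATTGG and the X box core as GNNACNNAT, and a pair was an X core followed on the same strand by a Y core with 10 to 40 bases between them. In the sequences of H2-Eb1, H2-DMb1 and H2-Ob the capitals mark the X core and then the Y core.
H2-Eb1, chr17:34305761-34305827, plus strand: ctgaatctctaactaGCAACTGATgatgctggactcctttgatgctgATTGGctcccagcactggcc
H2-DMb1, chr17:34153082-34153149, plus strand: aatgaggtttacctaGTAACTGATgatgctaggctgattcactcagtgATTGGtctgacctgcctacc
H2-Ob, chr17:34238803-34238867, plus strand: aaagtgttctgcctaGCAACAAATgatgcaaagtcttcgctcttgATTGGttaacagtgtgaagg
The X and Y cores were 23 bases apart in H2-Eb1, 24 in H2-DMb1 and 21 in H2-Ob. A search by these letters misses any X box that departs from them. By this search the promoters of H2-Aa and H2-Oa held the Y core without a paired X core, and the capitals mark that Y core.
H2-Aa, chr17:34287852-34287918, minus strand: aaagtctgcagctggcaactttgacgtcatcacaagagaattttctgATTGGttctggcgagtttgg
H2-Oa, chr17:34092289-34092355, plus strand: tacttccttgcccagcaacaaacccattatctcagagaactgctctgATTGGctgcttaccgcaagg
In all, 6 of the 7 searched members held a Y core, against 33.8% of all 32851 promoters. Members were counted by gene and the shares by promoter, and H2-DMa held its X core and its Y core in different promoters. An X core was found in 5 members, against 22% of all promoters, and the pair in 3 members, against 0.703% of all promoters. No pair was found in the windows of H2-DMa or Ctss. These matches describe letters in a window, and binding was not measured. The 2 motifs do not overlap within a pair. Among 144 measured genes with the pair, 17 were called lower and 9 higher after LPS in WT mice, by the criteria given next, where 4.95% and 4.05% of all genes were called. In ficolin KO mice 15 were called lower and 9 higher, against 4.43% and 4.22% of all genes. Without the 3 members, 14 and 9 of 141 genes were called in WT and 12 and 9 in ficolin KO mice.

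The first comparison asked how the class II genes responded to LPS in each genotype. All 9 measured members were lower on every LPS challenged array than on every naive array of the same genotype, in WT and in ficolin KO mice. By the criteria of a fold-change over 2 and an adjusted p under 0.05 (limma, Benjamini-Hochberg over all genes), 7 of 9 members were called lower in WT mice, where 4.95% of all genes were called lower. In ficolin KO mice 6 of 9 members were called lower, against 4.43% of all genes. No member was called higher, against 4.05% and 4.22% of all genes. Groups that did not overlap were found for 40.7% of all genes in WT and 39.7% in ficolin KO mice. The adjusted p of the members ranged from 4.42e-10 to 0.000468 in WT and from 7.85e-10 to 0.000579 in ficolin KO mice. Across the members the median log2 fold-change was −1.20 with intact ficolins and −1.24 without, where the medians over all genes were 0.01 and −0.01. In whole spleen, fewer cells of a type and less RNA per cell cannot be told apart.

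**Figure D1:**
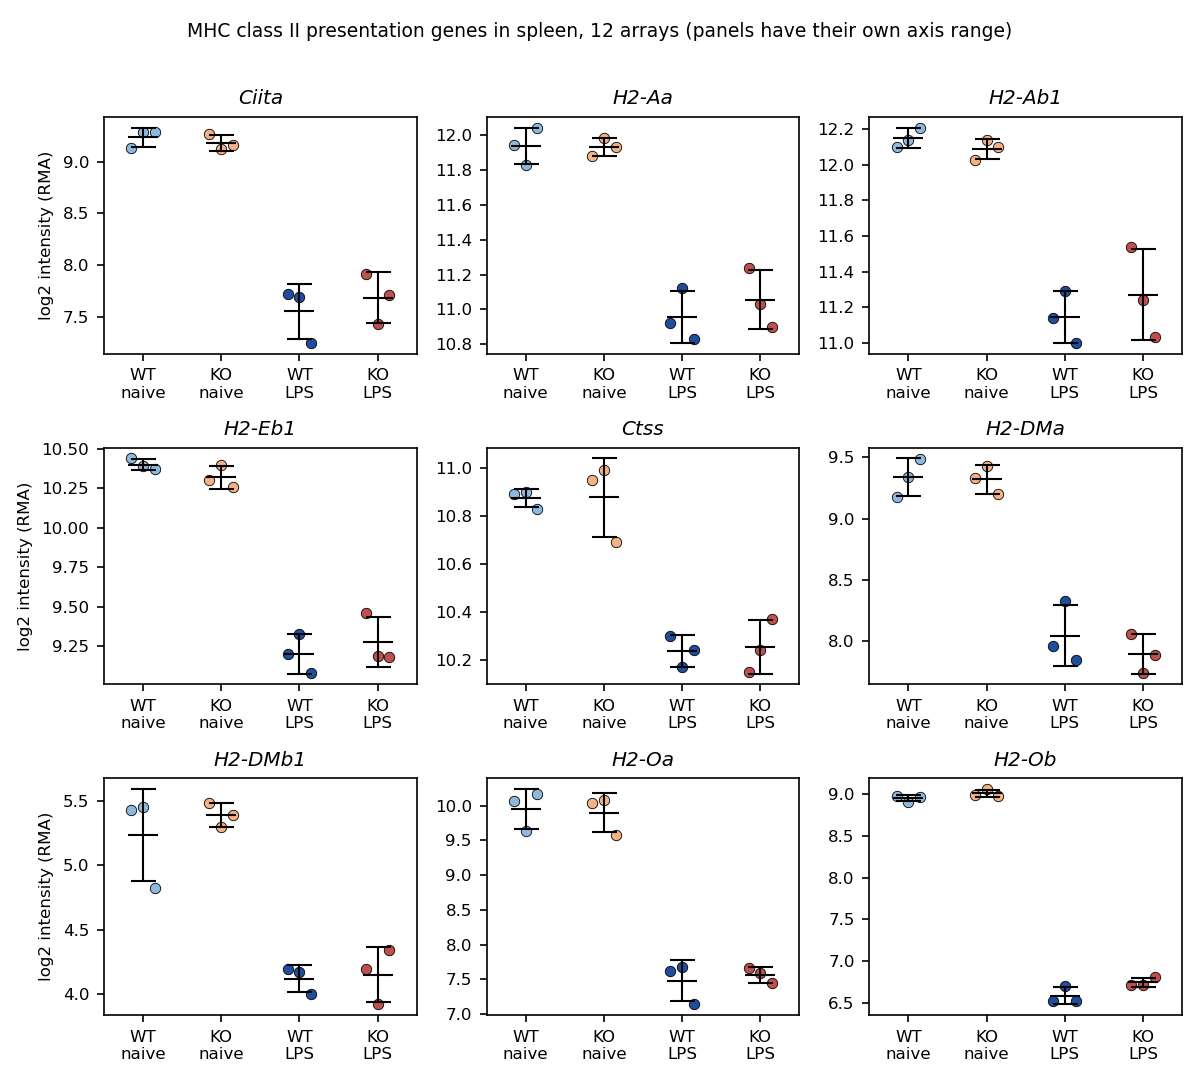
The log2 intensity of each of the 9 measured class II genes is plotted for every array, with the mean and SD (n = 3) of each group and a separate axis range per panel. The 3 LPS challenged arrays of each genotype lay below its 3 naive arrays in every panel.

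Among the classical chains, H2-Eb1, the β chain of the I-E molecule, fell in both genotypes. Its log2 values were 10.44, 10.39 and 10.37 in naive WT mice and 9.20, 9.33 and 9.08 in LPS challenged WT mice. In ficolin KO mice they were 10.30, 10.40 and 10.26 in the naive state and 9.46, 9.19 and 9.18 after LPS. The LPS challenged arrays were thus all lower than the naive ones by more than the spread within a group. As a log2 fold-change this was −1.20 (SE 0.12, adjusted p = 1.22e-06, limma) in WT and −1.04 (SE 0.12, adjusted p = 4.98e-06) in ficolin KO mice. The latter was −0.995, short of the fold criterion, without LPS challenged ficolin KO replicate 3. Over the alternatives in processing it ran from −1.043 to −1, so that this call was marginal.

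H2-Ab1, the β chain of the I-A molecule, was the brightest probe set of the set and passed the criteria in WT mice only at the margin. In WT mice its log2 values were 12.10, 12.14 and 12.21 without and 11.14, 11.29 and 11.00 with LPS. In ficolin KO mice they were 12.03, 12.14 and 12.10 without and 11.54, 11.24 and 11.03 with LPS. No LPS challenged array reached a naive one, and LPS challenged ficolin KO replicate 1 lay highest among the challenged arrays. The log2 fold-change was −1.01 (SE 0.13, adjusted p = 2.63e-05, limma) in WT and −0.82 (SE 0.13, adjusted p = 0.000188) in ficolin KO mice, where it missed the fold criterion. The call in WT mice was lost without naive WT replicate 3 (−0.98) or LPS challenged WT replicate 3 (−0.94), with array medians subtracted (−0.97) and after another quantile normalization (−0.86).

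H2-Aa, the α chain that pairs with H2-Ab1, missed the fold criterion in both genotypes. Its log2 values were 11.94, 11.83 and 12.04 in naive WT and 10.92, 11.12 and 10.83 in LPS challenged WT mice. They were 11.88, 11.98 and 11.93 in naive and 11.24, 11.03 and 10.90 in LPS challenged ficolin KO mice. As for its partner, the groups did not overlap. The decrease of −0.98 on the log2 scale in WT mice (95% confidence interval −1.24 to −0.72, adjusted p = 1.59e-05, limma) left 50.7% of the naive intensity, and that of −0.87 in ficolin KO mice (−1.13 to −0.61, adjusted p = 5.04e-05) left 54.6%. It passed the fold criterion in WT mice without naive WT replicate 2 (−1.03) or LPS challenged WT replicate 2 (−1.06). With 1 array left out the smallest fall in WT mice was −0.92. Over the alternatives in processing it ran from −0.98 to −0.80. The difference between H2-Ab1 and H2-Aa within an array stayed between 0.13 and 0.31 in all 4 groups, so that the paired chains moved by similar amounts.

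Both genes of the peptide editor H2-DM fell in both genotypes. H2-DMa, its α chain, had log2 values of 9.18, 9.34 and 9.49 in naive WT and 7.96, 8.33 and 7.85 in LPS challenged WT mice. Those of ficolin KO mice were 9.33, 9.43 and 9.20 against 8.06, 7.74 and 7.89. The gap between the naive and the challenged arrays exceeded the range within any group. H2-DMa changed by −1.29 on the log2 scale (SE 0.14, adjusted p = 5.01e-06, limma) in WT and by −1.42 (SE 0.14, adjusted p = 1.94e-06) in ficolin KO mice.

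H2-DMb1, a β chain of H2-DM, was the dimmest probe set of the 9. It had log2 values of 5.43, 5.45 and 4.82 in naive WT and 4.19, 4.17 and 4 in LPS challenged WT mice. It had 5.48, 5.30 and 5.39 in ficolin KO mice without and 4.19, 3.92 and 4.34 with LPS. The challenged arrays thus lay around the array medians, so that the fall can be a lower bound. Its log2 fold-change was −1.11 (SE 0.16, adjusted p = 7.40e-05, limma) in WT and −1.24 (SE 0.16, adjusted p = 2.77e-05) in ficolin KO mice. H2-DMb2, a closely related neighbouring β chain gene, fell as well, from a mean of 8.50 to 6.85 in WT mice (−1.65) and from 8.48 to 7.04 in ficolin KO mice (−1.44). Probes for genes this alike may share signal, so the split between H2-DMb1 and H2-DMb2 is uncertain.

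The largest falls of the 9 members were those of H2-Oa and H2-Ob, the chains of the H2-DM modulator. H2-Oa had log2 values of 10.06, 9.63 and 10.17 in naive WT and 7.62, 7.68 and 7.14 in LPS challenged WT mice. In ficolin KO mice it had 10.04, 10.08 and 9.58 in the naive state and 7.66, 7.59 and 7.44 after LPS. The naive and challenged arrays were far apart, and the challenged ficolin KO arrays had the narrowest spread. Its log2 fold-change was −2.47 (95% confidence interval −2.86 to −2.09, adjusted p = 6.89e-08, limma) in WT and −2.34 (−2.72 to −1.95, adjusted p = 1.29e-07) in ficolin KO mice. This left 18% and 19.8% of the naive intensity.

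H2-Ob, the partner chain, moved with the smallest spread. Its log2 values were 8.98, 8.91 and 8.96 in naive WT, 8.99, 9.06 and 8.98 in naive ficolin KO, 6.53, 6.71 and 6.53 in challenged WT and 6.72, 6.72 and 6.81 in challenged ficolin KO mice. Within each group these arrays were close to each other, and the shift with LPS was many times that spread. The log2 fold-change was −2.36 (−2.58 to −2.14, adjusted p = 4.42e-10, limma) in WT and −2.26 (−2.48 to −2.04, adjusted p = 7.85e-10) in ficolin KO mice, leaving 19.5% and 20.9%. Of all genes, only 0.239% had a lower log2 fold-change than H2-Oa and 0.307% a lower one than H2-Ob in WT mice.

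The confidence intervals of H2-Oa and H2-Ob did not overlap those of the other 7 members in either genotype. The unequal change was also visible within arrays. H2-Oa minus H2-DMa was 0.29 to 0.88 in naive WT and 0.38 to 0.71 in naive ficolin KO mice, and it was −0.71 to −0.34 and −0.45 to −0.15 after LPS. H2-Ob minus H2-DMb2 went from 0.39 to 0.51 in naive WT mice to −0.43 to −0.09 in LPS challenged WT mice, and from 0.45 to 0.58 to −0.40 to −0.19 in ficolin KO mice. The sign of such a difference carries no meaning, since probe sets differ in brightness, but its shift shows a larger fall of the H2-O chains than of the H2-DM chains on these arrays. With 3 arrays against 3, an exact permutation test (two-sided) cannot give a p below 0.1, and none was run on these differences.

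Ciita, which sets the level of class II transcription, fell in both genotypes. Its log2 values were 9.13, 9.29 and 9.29 in naive WT and 7.72, 7.69 and 7.25 in LPS challenged WT mice. They were 9.27, 9.12 and 9.16 in naive and 7.92, 7.43 and 7.71 in LPS challenged ficolin KO mice. The challenged arrays were more spread out than the naive ones and did not reach them. Its log2 fold-change was −1.68 (SE 0.15, adjusted p = 4.85e-07, limma) in WT and −1.5 (SE 0.15, adjusted p = 1.71e-06) in ficolin KO mice, with 31.1% and 35.4% of the naive intensity left.

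Ctss, the protease that trims the invariant chain, had the smallest difference of the set and missed the fold criterion. Its log2 values were 10.89, 10.90 and 10.83 in naive WT and 10.30, 10.17 and 10.24 in LPS challenged WT mice. Ficolin KO mice had 10.95, 10.99 and 10.69 without and 10.15, 10.24 and 10.37 with LPS. The groups were nevertheless apart in both genotypes. The log2 fold-change was −0.64 (−0.88 to −0.39, adjusted p = 0.000468, limma) in WT and −0.62 (−0.87 to −0.38, adjusted p = 0.000579) in ficolin KO mice.

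**Figure D2:**
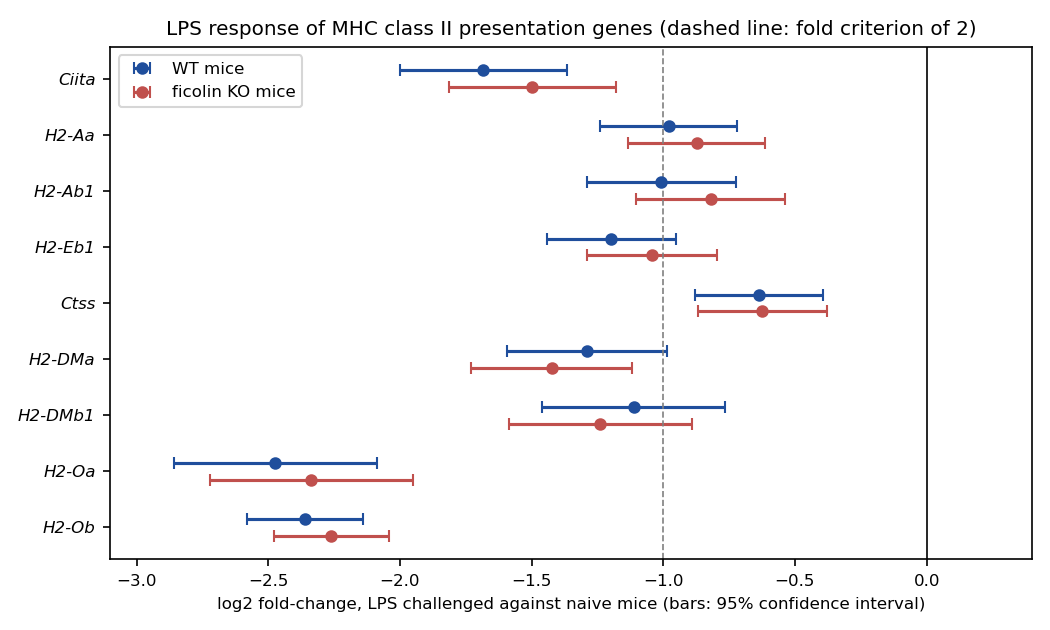
Points give the log2 fold-change of LPS challenged against naive mice for the 9 measured class II genes in WT and ficolin KO mice, bars the 95% confidence interval (3 arrays per group) and the dashed line the fold criterion of 2. H2-Oa and H2-Ob lie between −2.47 and −2.26, apart from the other members, and Ctss lies nearest to 0.

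The mean over the 9 members was 9.76 to 9.80 on naive WT, 9.70 to 9.83 on naive ficolin KO, 8.21 to 8.50 on LPS challenged WT and 8.34 to 8.55 on LPS challenged ficolin KO arrays. LPS challenged WT replicate 3 had the lowest value of its group for 7 of the 9 members. LPS challenged ficolin KO replicate 1 had the highest of its group for 6 members. Among the naive arrays, ficolin KO replicate 2 had the highest of its group for 7 members. Several members were thus low or high on the same array, challenged or naive.

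The transcriptional regulators of class II genes did not move as a block. Of 17 measured genes of this list, 4 were called higher and 1 lower in WT mice, and 3 higher and 0 lower in ficolin KO mice. The median log2 fold-change was 0.13 and 0.14. Socs1, an inhibitor of cytokine signalling, rose by 3.26 and 3.36, from a mean of 5.88 to 9.14 in WT and from 5.71 to 9.07 in ficolin KO mice. Irf1, an interferon-induced activator of Ciita transcription, rose by 2.03 and 2.16, and Irf8, a factor of B cells and myeloid cells, by 1.26 and 1.26. Irf1 was thus higher in the challenged groups, in which Ciita was lower. Prdm1, a repressor of Ciita in plasma cells, rose in WT mice (1.20) and had 0.81 in ficolin KO mice, below the fold criterion. Ifngr1, a chain of the interferon-γ receptor, fell in WT mice (−1.14) and had −0.86 in ficolin KO mice. The differences between these responses of WT and ficolin KO mice were not called. Among the RFX subunits, Rfxank had −0.99 and −0.79, Rfxap −0.75 and −0.42, and Rfx5 0.18 and 0.41, none past the fold criterion. Nfya, Nfyb and Nfyc, the NF-Y subunits, lay between −0.41 and 0.24. Pax5 and Spi1, lineage factors of B cells and myeloid cells, lay between 0.04 and 0.13.

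Genes of antigen processing went both ways, with calls only among the lower ones. Of 16 measured genes, 4 were called lower and 0 higher in each genotype, and the median change on the log2 scale was −0.16 with and −0.36 without ficolins. Ctsh, a lysosomal aminopeptidase, fell by 1.86 and 1.70, and Cst3, a cathepsin inhibitor, by 1.40 and 1.55. Ctsd, an aspartic protease, fell by 1.17 and 1.23 and Psap, the saposin precursor, by 1.04 and 1.01. Lgmn, the asparagine endopeptidase, had −0.04 and 0.00, and Ifi30, the thiol reductase of endosomes, 0.29 and −0.09, both short of the criteria. Sppl2a, which degrades the last membrane stub of the invariant chain, had 0.67 (adjusted p = 0.000526, limma) and 0.73 (adjusted p = 0.00026), and Ctsz, a lysosomal carboxypeptidase, had 0.70 (adjusted p = 0.00063) and 0.69 (adjusted p = 0.000739). Both were higher on every challenged than on every naive array, below the fold criterion.

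The list of class II surface regulation and partner molecules was split. Of 14 measured genes, 5 were called higher and 3 lower in both genotypes. The costimulatory molecules Cd40 and Cd80 rose by 2.20 and 2.09 in WT and by 2.10 and 2.13 in ficolin KO mice. Il10, a cytokine that lowers class II on myeloid cells, rose by 1.84 and 1.88. Its naive means of 3.57 and 3.61 lay below the array medians, so that this rise can be a lower bound. Mif, a ligand of the invariant chain, rose by 1.83 and 1.66, and Cd83, which shields class II from ubiquitination, by 1.48 and 1.23. Marchf1, the ubiquitin ligase of class II, had −0.91 and −0.97 and did not pass the fold criterion. Cd86, another costimulatory ligand, had 0.89 and 0.88. The 3 genes that fell were H2-DMb2, H2-Eb2, a class II β chain gene next to H2-Eb1 (−1.41 and −1.37), and Cd4, the coreceptor of class II restricted T cells (−1.33 and −1.19). H2-Ea had means from 3.13 to 3.56 in the 4 groups, below the array medians, and C57BL/6 mice are known to carry a defective copy of this α chain gene, so that they do not assemble the I-E molecule.

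Class I presentation was compared as the parallel pathway, whose transactivator Nlrc5 is a relative of Ciita. Of 8 measured genes, 4 were called higher and 0 lower in WT mice, and 3 higher and 0 lower in ficolin KO mice. Nlrc5 rose from a mean of 6.71 to 8.61 in WT and from 6.71 to 8.70 in ficolin KO mice. The peptide transporter subunits Tap1 and Tap2 rose by 1.69 and 1.18 in WT and by 1.76 and 1.02 in ficolin KO mice. Ciita minus Nlrc5 moved from 2.35 to 2.73 in naive WT and 2.36 to 2.55 in naive ficolin KO mice to −1.29 to −0.81 and −1.19 to −0.88 after LPS, so that the transactivators moved in opposite directions on these arrays.

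**Figure D3:**
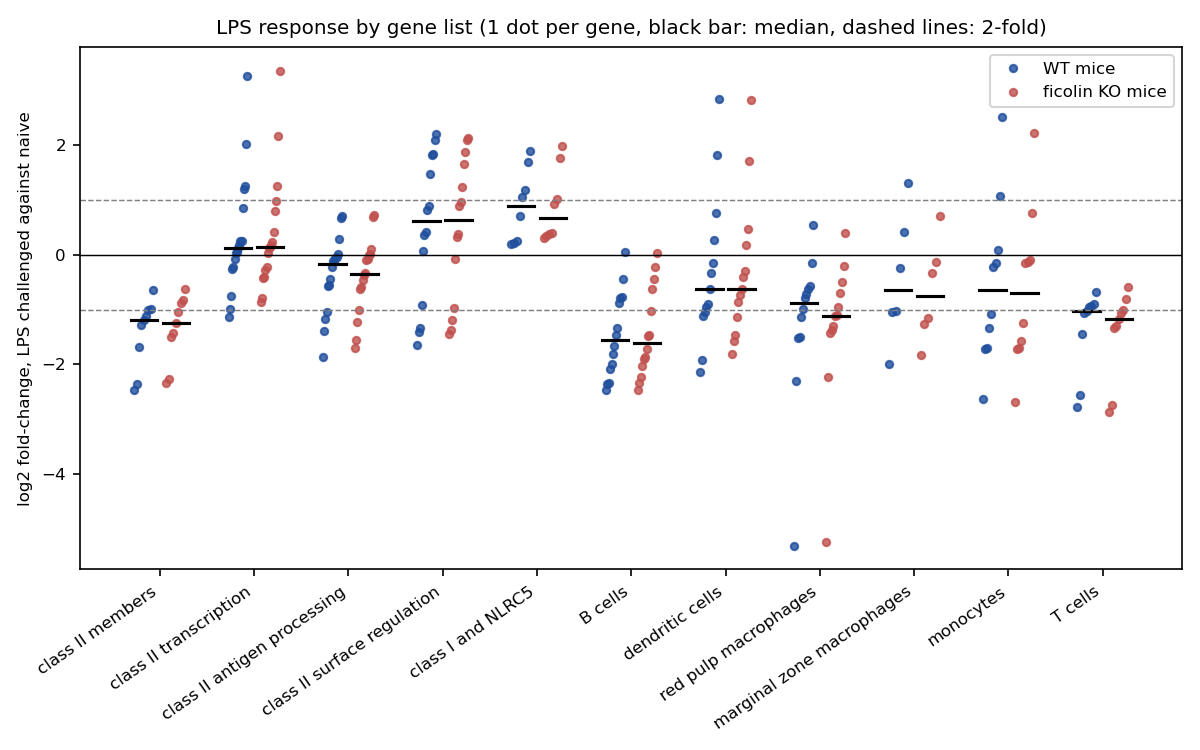
Each dot is the log2 fold-change of a gene between LPS challenged and naive mice, by gene list and genotype, with black bars for medians and dashed lines for a fold-change of 2. The 9 class II members lie below 0 with medians of −1.20 and −1.24, the B cell genes have medians of −1.56 and −1.61, and the class I genes lie above 0.

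Markers of the cells that carry class II moved as well. Of 14 measured B cell genes, 9 were called lower in WT and 10 in ficolin KO mice, and 0 higher. The list mean was 9.84 to 10.02 on naive WT, 9.85 to 10.07 on naive ficolin KO, 8.42 to 8.57 on LPS challenged WT and 8.48 to 8.59 on LPS challenged ficolin KO arrays. Cd79a, a chain of the B cell receptor complex, fell by 2.46 and 2.35 and Fcrla, an Fc receptor-like protein of B cells, by 2.36 and 2.47. Ms4a1, which encodes CD20, fell by 1.46 and 1.47, and Cd37, a tetraspanin, by 1.33 and 1.49. Pax5 had 0.05 and 0.04.

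Set against the change of the B cell mean (−1.45 in WT and −1.42 in ficolin KO mice), H2-Oa differed by −1.02 and −0.92 and H2-Ob by −0.91 and −0.85. The B cell genes themselves ran from −2.46 for Cd79a to 0.05 for Pax5 in WT mice. In ficolin KO mice they ran from −2.47 for Fcrla to 0.04 for Pax5. The falls of H2-Oa (−2.47 and −2.34) and H2-Ob (−2.36 and −2.26) were thus like those of the B cell genes that fell most. Ciita differed from it by −0.23 and −0.08 and H2-DMa by 0.16 and −0.01. The classical chains lay above it, with 0.47 and 0.54 for H2-Aa, 0.45 and 0.59 for H2-Ab1 and 0.26 and 0.37 for H2-Eb1, and so did Ctss with 0.82 and 0.79. The part of B cell number in the fall of the members was not tested.

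Dendritic cell genes went both ways. Of 13 measured genes, 2 were called higher and 4 lower in each genotype. Fscn1 and Ccr7, genes of mature dendritic cells, rose by 2.85 and 1.82 in WT and 2.83 and 1.71 in ficolin KO mice. Itgax, which encodes CD11c, fell by 1.92 and 1.82, and Clec4a4, a lectin of a conventional dendritic cell subset, by 2.13 and 1.57. Clec4a4 had means of 3.10 and 3.23 after LPS, below the array medians, so that its fall can be a lower bound. Their list mean was 6.30 to 6.48 on naive WT and 5.99 to 6.24 on LPS challenged WT arrays, and 6.17 to 6.42 and 6.00 to 6.06 on those of ficolin KO mice.

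Other cell type lists were followed by counts. Of 12 red pulp macrophage genes, 5 were called lower in WT and 7 in ficolin KO mice, and 0 higher. Their median log2 fold-change was −0.89 and −1.11. The list ran from Slc40a1, the iron exporter, with −5.31 and −5.25, to Spic, with 0.55 and 0.41. Of 6 marginal zone macrophage genes, 3 were called lower in each genotype and 1 higher in WT mice. Of 10 monocyte genes, 5 were called lower in each, and 2 and 1 higher. T cell genes were called lower for 5 and 7 of 9 genes, and 0 higher. Plasma cell genes were called lower for 3 and 2 of 8, with 1 and 0 higher, and neutrophil genes for 0 and 1 of 10, with 0 higher. The part of these cells in the members' response was not tested.

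The next comparison asked whether ficolin deficiency changed the class II genes in naive mice. By a fold-change over 1.5 and p under 0.05, 0 of 9 members were called, where 0.0947% of all genes were called higher and 0.0902% lower. The count at an unadjusted p under 0.05 was 0 (limma). The differences of ficolin KO from WT mice ran from −0.08 for H2-Eb1 to 0.16 for H2-DMb1, which had the smallest p of 0.351 (limma). Naive groups overlapped for all 9 members, as the values given above show. The 95% confidence intervals of the 9 differences reached from −0.44 to 0.50 and lay within the fold criterion of 1.5 in each direction. For H2-Aa the interval was −0.27 to 0.25, for H2-Ob −0.16 to 0.28 and for Ciita −0.37 to 0.26.

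In LPS challenged mice 0 of 9 members were called between the genotypes as well, where 0.149% of all genes were called higher and 0.311% lower, and the count at an unadjusted p under 0.05 was 0 (limma). The differences ran from −0.15 for H2-DMa to 0.16 for H2-Ob, with 8 of 9 members higher in ficolin KO mice. Of all 22180 genes, 10885 were lower in ficolin KO mice. The members are not separate counts, since their deviations within groups had a median correlation of 0.376 over 36 pairs of members. H2-Ob, with 6.53 to 6.71 in WT and 6.72 to 6.81 in ficolin KO mice, was the single member whose groups did not overlap, which held for 10.9% of all genes. Its difference was 0.16 (−0.06 to 0.38, adjusted p = 0.937, limma), within the error of the fit. H2-Ab1 differed by 0.13 (−0.16 to 0.41) and H2-Eb1 by 0.07 (−0.17 to 0.32), and without LPS challenged ficolin KO replicate 1 these were −0.01 and −0.02. Over the 9 members the intervals reached from −0.46 to 0.47. The exocrine pancreas genes had list means of 9.04 to 11.10 on LPS challenged WT and 4.19 to 8.53 on LPS challenged ficolin KO arrays, with 13 of 13 called lower in ficolin KO mice. Their part in the members' values was not tested.

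**Figure D4:**
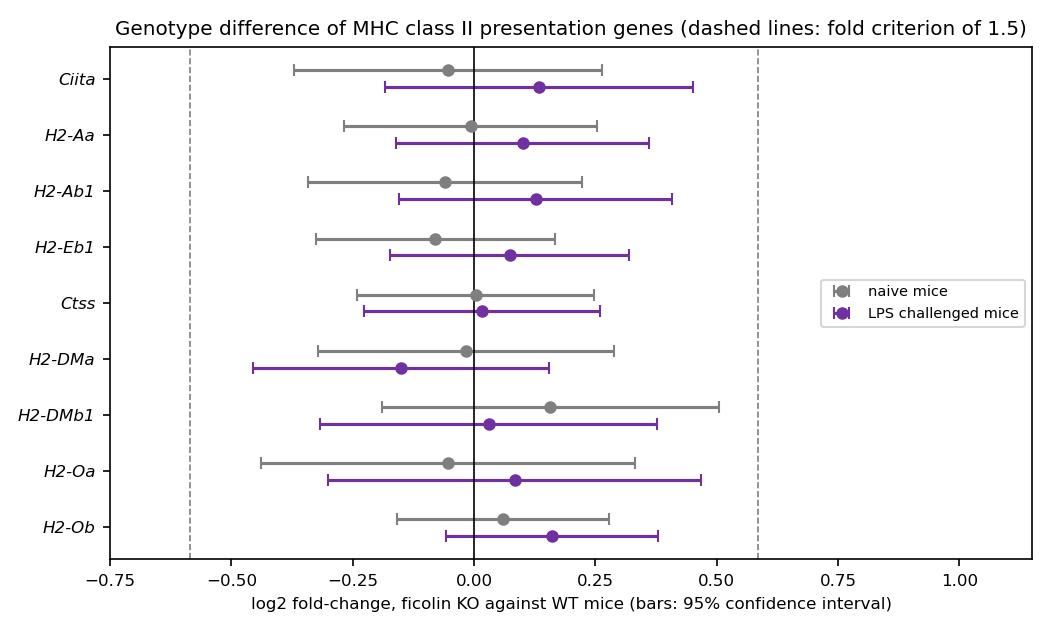
Points give the log2 fold-change of ficolin KO against WT mice for the 9 measured class II genes in the naive and the LPS challenged state, bars the 95% confidence interval and dashed lines the fold criterion of 1.5. The differences lie between −0.15 and 0.16, and every interval includes 0 and stays within the dashed lines.

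The LPS responses of the genotypes were then compared with each other in the same fit. Of the 9 members 0 differed at an adjusted p under 0.05, where 0.00902% of all genes did, and 0 had an unadjusted p under 0.05 (limma). Ficolin KO minus WT responses ran from −0.13 for H2-DMa to 0.19 for Ciita. For Ciita the interval was −0.26 to 0.64, for H2-Ab1 (0.19) −0.21 to 0.59 and for H2-Oa (0.14) −0.41 to 0.68. These intervals are wider than those of a single comparison, and differences between the responses up to these bounds are not excluded. The call of H2-Ab1 in WT and not in ficolin KO mice was thus not accompanied by a called difference between the responses.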

How the data were processed

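Before deposit, the authors applied quantile normalization and RMA (Qlucore Omics Explorer 3.2). The table deposited holds log2 intensities of 41345 probe sets, rounded to 2 decimals. The scanned arrays were not used here. Probe sets with several symbols (1820) or none (16004) were left out, and for the 1082 genes with several probe sets the brightest was used. All 12 arrays entered 1 limma fit (version 3.58.1, R 4.3.3) with moderated variances, with 8 residual and 6.7 prior degrees of freedom, without a filter on dim genes. The fit was tested on simulated data. Adjustment of p followed Benjamini and Hochberg, over all 22180 genes. The labels give 3 separate samples per group, and p-values measure the spread between them. Every member is named. Any measured gene of the class II lists could be named, and of the class I and cell type lists the extremes called in both genotypes and the defining markers. Members and lists were chosen with earlier results of these data known. Alternatives were other normalizations, a filter on dim genes, averaged or all probe sets, pairs of groups alone, ordinary least squares, trended and robust variances, a replicate block and each array left out.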

Additional observations from a re-analysis of the deposited data

How the results depend on the processing

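The counts of called members held in every alternative within a factor of 1.5: 6 to 7 were lower in WT and 6 in ficolin KO mice over the alternatives in processing, and 6 to 8 and 5 to 6 with 1 array left out. Between genotypes and between responses 0 members were called in every alternative. No called value changed sign. The calls that changed were those of H2-Ab1 and H2-Aa in WT and H2-Eb1 in ficolin KO mice, whose log2 fold-changes lie near the fold criterion. The cause of the shift of H2-Ab1 with the normalization, and of H2-Aa over the alternatives in processing, was not tested. As a set, same-numbered arrays of different groups did not deviate together. The 18 correlations of their deviations ran from −0.217 to 0.249 with a median of −0.0486. Those of 36 differently numbered pairs ran from −0.23 to 0.205 with a median of 0.0196. The value of 0.249 was that of LPS challenged WT replicate 3 with LPS challenged ficolin KO replicate 3. The replicate block left 7 called members in WT and 6 in ficolin KO mice and changed no call. H2-DMb1 after LPS is limited by its signal over background, and 3 mice per group limit the genotype comparisons.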
